A study of Homo sapiens with 9 samples.

Results

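The HOXB cluster and HOXB13 lie on chromosome 17, in hg19 from 46590000 to 46830000, and this interval was examined in 6 lists of regions bound by EZH2 or marked on histone H3 in LNCaP cells, an established human prostate cancer cell line. Its members were the listed regions that overlapped the interval, 83 of the 335291 regions in all lists, and the 10 genes HOXB1 to HOXB9 and HOXB13. Chromatin immunoprecipitation with sequencing was done with antibodies against EZH2, H3K27ac and H3K27me3. It was done in cells infected with a lentivirus carrying a short hairpin against EZH2 (shEZH2) and in control cells with the empty vector plko.1. Cells were fixed 2 to 3 days later. The title of the control EZH2 sample reads EZH2(CST) and that of the shEZH2 sample reads EZH2 alone. The titles thus do not say whether both were made with the same EZH2 antibody. Each of the 6 groups held 1 library, so no difference between shEZH2 and control could be set against a spread between cultures, and no test of it was possible. The lists hold chromatin measurements and no expression values, so neither the level of EZH2 nor markers of the cell line could be checked in them. In such bulk samples, fewer cells with a mark and less of it per cell cannot be told apart. Library depths ran from 13331155 to 33289172 tags. Values are normalised tags, meaning tags per 10000000 tags of the library as scaled by the authors, and 95% intervals are exact Poisson or binomial intervals that cover counting error only.

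HOX genes encode homeodomain transcription factors that set positional identity along the body axis, in an order along the chromosome that follows their order of use in the embryo. Polycomb repressive complex 2, whose catalytic subunit is EZH2, trimethylates lysine 27 of histone H3 (H3K27me3) over HOX genes that a cell keeps silent. H3K27ac, acetylation at that lysine, is found at promoters and enhancers in use, and a single lysine cannot carry both modifications. HOXB13 is set apart from the rest of the cluster by a long gene-poor stretch, is a marker of the prostate lineage, and is a partner of the androgen receptor on chromatin.

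Gene positions in hg19 were at hand for 3 of the 10 members: HOXB1 near 46.607 Mb, HOXB9 near 46.7 Mb and HOXB13 from 46802127 to 46806111 on the minus strand. The other 7 members, HOXB2 to HOXB8, follow each other between HOXB1 and HOXB9 in the RefSeq gene table, and regions among them were not assigned to single genes. HOXB2 and HOXB3 act in hindbrain patterning, HOXB4 is known for expanding blood stem cells, HOXB8 for blocking myeloid differentiation in mouse, and HOXB5, HOXB6 and HOXB7 pattern the neck and trunk. That table also places MIR10A between HOXB4 and HOXB5, MIR196A1 between HOXB9 and HOXB13, and PRAC2, PRAC1 and MIR3185 directly beside HOXB13. Results are given for a HOXB1 to HOXB9 stretch, up to 10 kb beyond the HOXB9 position (46590000 to 46710000), a stretch between, and a HOXB13 stretch that starts 10 kb before the gene (46792127 to 46830000).

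The microRNAs of the cluster are shown because they lie at different places along it. Their mature sequences, from RefSeq (GRCh38.p14), are written with the seed (bases 2 to 8) in capitals, and no seed is shared among the 3.
hsa-miR-10a-5p: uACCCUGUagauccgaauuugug
hsa-miR-196a-5p: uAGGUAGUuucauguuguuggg
hsa-miR-3185: aGAAGAAGgcggucggucugcgg
By gene order, miR-10a lies among the HOXB1 to HOXB9 genes, miR-196a, which cleaves the HOXB8 messenger RNA, lies beyond HOXB9, and miR-3185 lies beside HOXB13.

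Promoter windows of 300 bases were at hand for 1 member, HOXB1, and for neighbouring transcripts, and are shown for genes at the outer end of the cluster (HOXB1), within it (HOXB-AS3, an antisense transcript that starts beside HOXB5 and HOXB6) and beside HOXB13 (PRAC1, a small protein made in prostate and distal gut, and PRAC2). They are from RefSeq (GRCh38.p14, chromosome 17) in the direction of each gene, with CpG dinucleotides, to which Polycomb complexes are recruited when unmethylated and inactive, in capitals.
HOXB1 (minus strand, chr17:48530962-48531261): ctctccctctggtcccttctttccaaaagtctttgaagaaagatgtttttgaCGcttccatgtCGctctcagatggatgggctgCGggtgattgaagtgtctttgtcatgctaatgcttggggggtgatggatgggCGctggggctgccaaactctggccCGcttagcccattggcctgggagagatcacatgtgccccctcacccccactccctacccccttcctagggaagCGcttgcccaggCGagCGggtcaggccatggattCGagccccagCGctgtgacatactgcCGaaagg
HOXB-AS3 (plus strand, chr17:48595708-48596007): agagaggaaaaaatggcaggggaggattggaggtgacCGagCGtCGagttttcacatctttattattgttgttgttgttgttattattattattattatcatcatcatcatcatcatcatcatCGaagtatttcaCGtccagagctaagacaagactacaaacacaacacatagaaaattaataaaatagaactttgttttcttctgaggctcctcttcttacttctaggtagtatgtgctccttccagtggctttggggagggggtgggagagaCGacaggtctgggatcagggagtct
PRAC1 (minus strand, chr17:48722469-48722768): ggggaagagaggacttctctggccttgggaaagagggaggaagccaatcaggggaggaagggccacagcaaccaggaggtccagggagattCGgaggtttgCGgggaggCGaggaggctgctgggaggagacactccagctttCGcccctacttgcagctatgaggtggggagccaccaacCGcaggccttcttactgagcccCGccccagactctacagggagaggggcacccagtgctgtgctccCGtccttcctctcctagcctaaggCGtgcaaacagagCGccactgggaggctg
PRAC2 (plus strand, chr17:48723442-48723741, the second of its 2 listed starts): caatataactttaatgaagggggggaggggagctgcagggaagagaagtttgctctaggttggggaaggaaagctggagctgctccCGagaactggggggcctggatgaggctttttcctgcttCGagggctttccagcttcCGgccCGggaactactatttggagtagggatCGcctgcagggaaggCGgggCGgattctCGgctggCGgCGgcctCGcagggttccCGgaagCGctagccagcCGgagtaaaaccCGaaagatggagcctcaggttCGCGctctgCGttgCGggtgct
The windows held 11 CpGs at HOXB1, 6 at HOXB-AS3, 9 at PRAC1 and 19 at PRAC2, against a median of 14 over 35116 windows. The window at the first PRAC2 start, not shown, held 10. The HOXB1 window held 1 match to TGATNNAT, the site at which HOX proteins bind together with PBX, searched on both strands. The match, TGATGGAT at bases 126 to 133, is a match of letters only. The other 3 windows shown held none, and 7.40% of all windows held at least 1.

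The interval was divided into a part with H3K27me3 and a part with H3K27ac, in both groups. H3K27me3 regions numbered 15 in shEZH2 and 32 in control, and none of them lay in the HOXB13 stretch in either group. H3K27ac regions of the HOXB13 stretch held 4398.2 of the 4560.5 H3K27ac tags of the interval in shEZH2 and 4583.7 of 4635.33 in control. In the HOXB1 to HOXB9 stretch, H3K27ac regions held 123.6 tags in shEZH2 and 43.6 in control. H3K27me3 regions held 978.17 tags there in shEZH2 and 571.66 in control. The lists of each mark were called with different settings in the 2 groups. For H3K27ac the calling threshold was 9.47 tags in a window of 1000 bp in shEZH2 and 5.16 tags in a window of 150 bp in control. For H3K27me3 it was 9.53 tags in shEZH2 and 3.91 in control, in the same windows. These thresholds apply to windows, and a listed region can have a lower mean density. Region numbers, widths and summed tags are therefore read within a group.

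**Figure D1:**
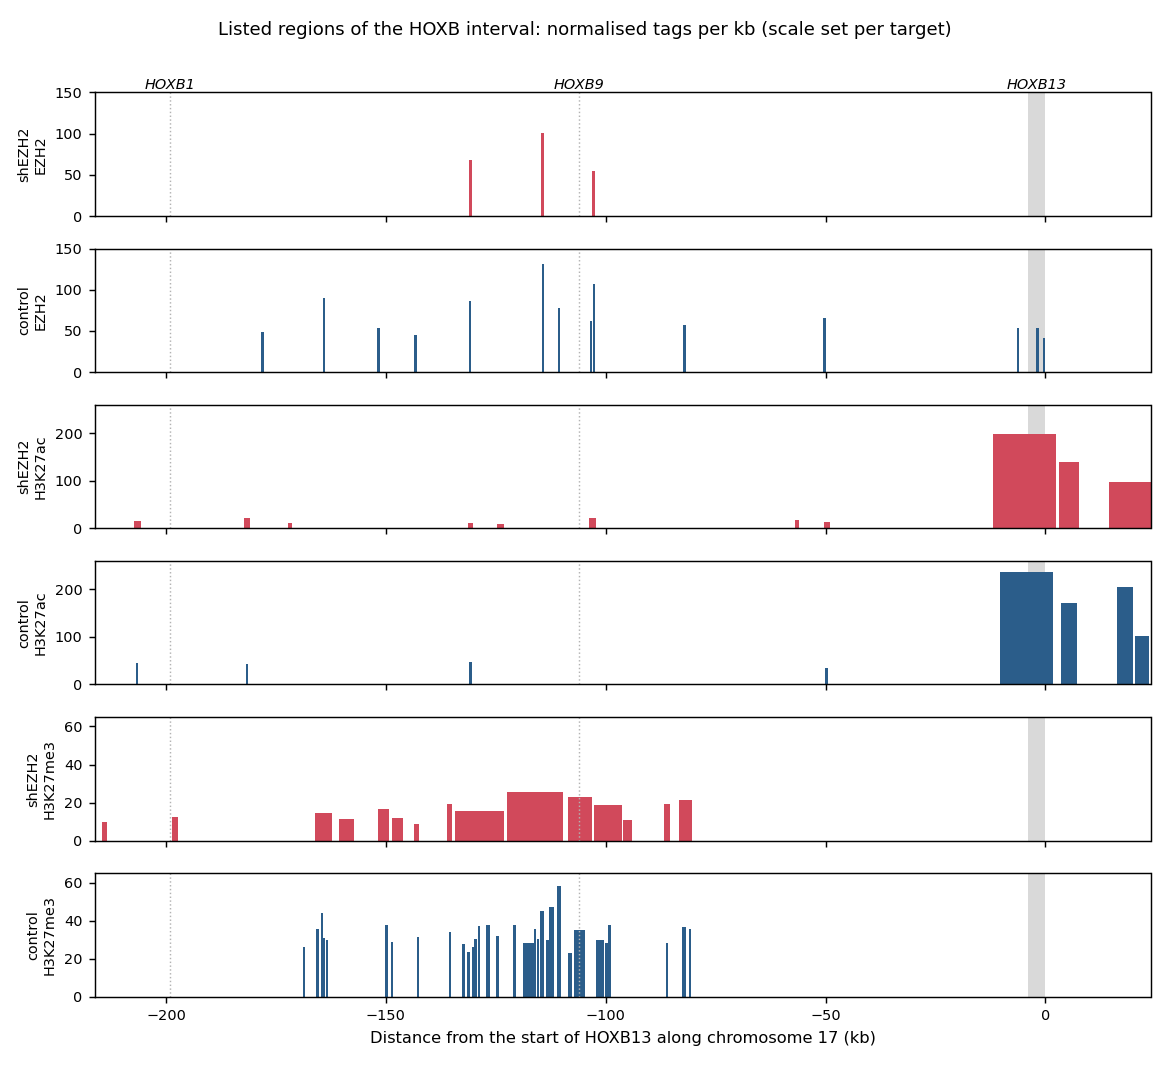
Listed regions of the 6 libraries along the interval, by distance from the start of HOXB13 (x axis, kb, negative towards HOXB1), drawn at their own width (at least 0.6 kb) with height in normalised tags per kb on a scale set per target. Red is shEZH2 and blue is control, dotted lines mark HOXB1 and HOXB9, and the grey band is HOXB13. The high H3K27ac regions, 98.3 to 237 tags per kb, lie at and above HOXB13, and H3K27me3 lies on the HOXB9 side, in both groups.

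Listed H3K27me3 was sparse on the side of HOXB1, the gene of the hindbrain end of the body axis, and covered most around and below HOXB9, a gene of trunk segments. The first control region lay 30.4 kb above the HOXB1 position, while shEZH2 had a small region at that position with 15.6 tags. The last 40 kb of the HOXB1 to HOXB9 stretch, from 46670000, held 79.5% of its H3K27me3 tags in shEZH2 and 90.3% in control. Listed H3K27me3 covered 37.2 kb of these 40 kb in shEZH2 and 14.9 kb in control, and 15.5 kb and 1.66 kb, in shEZH2 and control, of the 80 kb before them. Both lists thus had most H3K27me3 at the HOXB9 end.

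The control regions with most H3K27me3 tags were at HOXB9 and just below it. The region from 46698838 to 46701369, at the HOXB9 position, held 88.9 tags (79.1 to 99.6) and ranked 1902 by tags among 86120. The region from 46687300 to 46689721 held 67.9 and the one from 46703881 to 46705823 held 58.3. In shEZH2 the 3 regions with most tags ran from 46683563 to 46696377 with 330.4 tags (309 to 353), from 46671835 to 46682879 with 171.5, and from 46697411 to 46703012 with 129.2. The first of these was 12.8 kb wide and contained 8 control regions with 248.53 tags together. Further control regions from 46693231 and 46694987 held 57.4 and 52.9 tags, and the median over all 29 control regions of the stretch was 8.11 tags.

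Most control H3K27me3 regions were listed again. Of the 32 control regions, 31 overlapped a shEZH2 region, against 94.1% over the whole list. The exception, from 46637406 to 46637556, held 3.91 tags, which is the calling threshold of that library. Conversely 11 of the 15 shEZH2 regions overlapped a control region, against 36.8% over the list. The 4 others held 9.91 to 37.3 tags at 9.90 to 12.5 tags per kb. All 4 had a mean density below the control calling threshold of 26.0 tags per kb. So did every shEZH2 H3K27me3 region of the interval, at 8.75 to 25.8 tags per kb, so this does not set the 4 apart. One of them, from 46607517 to 46608769 with 15.6 tags, lay at the HOXB1 position. A gain of H3K27me3 there cannot be told apart from the settings of the calls.

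Tags at matching places could be compared as bounds. Each shEZH2 region that overlapped control regions contained them whole, so its tags are an upper limit for shEZH2 within the control borders. At the HOXB9 position the shEZH2 region from 46697411 held 129.2 tags and the 2 control regions inside it 110.8, a ratio of 1.17 (1.00 to 1.35). At the region from 46683563 the ratio was 1.33 (1.21 to 1.46). Over the 11 shEZH2 regions with a control counterpart, shEZH2 held 1001.16 tags on 51290 bp and control 613.37 on 17709 bp. That is a log2 ratio of 0.71 for tags and -0.83 for tags per kb. Scaled to the tags in listed regions, the ratio of tags was -0.65, so the sign turned both with the division by width and with the scaling. Those values are pooled over regions. Over all 5373 shEZH2 regions with at least 50 control tags, 5190 of which contained their control regions whole, the medians of single ratios were 0.71 and -0.62. The interval's regions with that many control tags began at 46671835, 46683563, 46697411 and 46703413. Their log2 ratios of tags were 1.11, 0.41, 0.22 and 0.82, at percentiles 79.9, 19.7, 7.15 and 60.4 of the list. Per kb their percentiles were 6.03, 52.7, 72.3 and 39.9. Whether the cluster lost or kept H3K27me3 can therefore not be told from these lists.

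**Figure D2:**
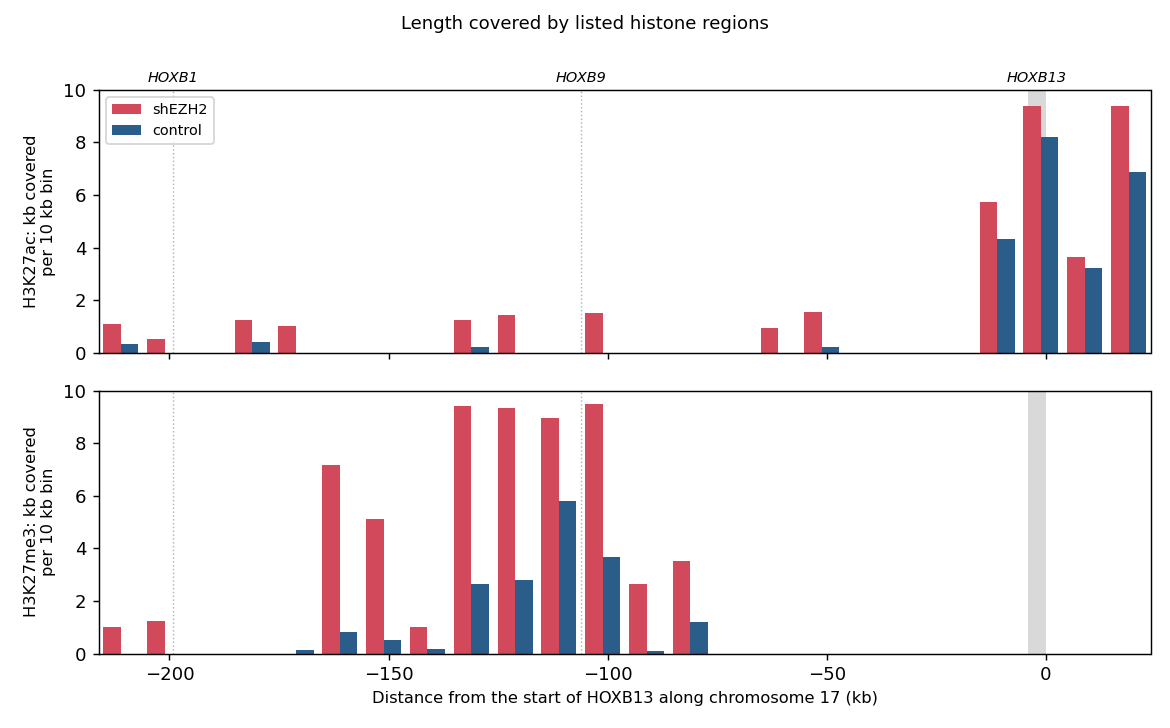
Length covered by listed regions in bins of 10 kb (y axis, kb) along the interval (x axis, kb from the start of HOXB13), for H3K27ac above and H3K27me3 below, with shEZH2 in red and control in blue. In both groups the 4 bins around and below HOXB9 hold most of the H3K27me3 cover and the 4 bins at HOXB13 most of the H3K27ac cover. The lists were called with wider windows in shEZH2, so bar heights are not compared between groups.

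HOXB13 itself lay inside a single broad H3K27ac region in both groups. It ran from 46794262 to 46808573 in shEZH2 with 2828.4 tags (2759 to 2899) and from 46795661 to 46807784 in control with 2878.2 tags (2799 to 2959). It reached 7.87 kb beyond the 3′ end of the gene in shEZH2 and 6.47 kb in control, on the side where PRAC1 and PRAC2 lie. On the side of the gene's start it reached 2.46 kb beyond it in shEZH2 and 1.67 kb in control. By tags it ranked 45 among 59233 regions in shEZH2 and 23 among 58134 in control. Few regions of either list held more H3K27ac tags.

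Further H3K27ac regions lay above HOXB13, in the direction of TTLL6, a gene for a tubulin-modifying enzyme. The next block ran from 46809191 to 46813647 in shEZH2 with 617.8 tags and from 46809565 to 46813224 in control with 629.7. The farthest block ran from 46820633 to 46830320 in shEZH2 with 952 tags (912 to 993). In control it was 2 regions, from 46822295 to 46825987 with 754.1 tags and from 46826441 to 46829617 with 321.7. All 3 shEZH2 and all 4 control regions of the HOXB13 stretch ranked in the upper 5.54% of their lists by tags.

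H3K27ac tags over HOXB13 and in the next block differed by less than counting error between the libraries, and those of the farthest block were lower in shEZH2. Because each control region lay inside its shEZH2 region, the ratio of tags is again an upper limit for shEZH2 over control. It was 0.983 (0.947 to 1.02) for the block over HOXB13, 0.981 (0.906 to 1.06) for the next and 0.885 (0.831 to 0.942) for the farthest. Over the 1612 shEZH2 H3K27ac regions that held at least 500 control tags, the median log2 ratio was 0.04 with quartiles of -0.12 and 0.19. The 3 blocks had -0.03, -0.03 and -0.18, so the first 2 lay between the quartiles and the farthest lay below the lower quartile. Per kb of region the log2 ratios were -0.26, -0.31 and -0.67, against a list median of -0.69 with quartiles of -0.88 and -0.49. Per kb the first 2 thus lay above the upper quartile and the farthest between the quartiles, so the placing in the list turned with the division by width. When tags were scaled to those in listed regions, which took 58.96% of tags in shEZH2 and 46.12% in control, the log2 ratio of tags over the 3 blocks together was -0.41 in place of -0.06. With 1 library per group, no spread between cultures stands beside these ratios.

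**Figure D3:**
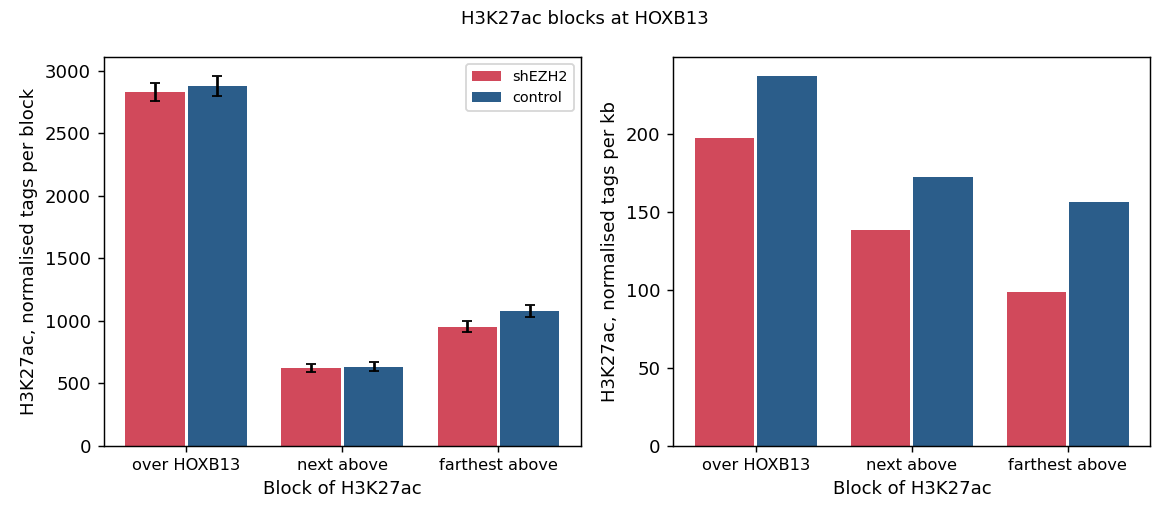
H3K27ac of the 3 blocks of the HOXB13 stretch (x axis), as normalised tags per block with 95% Poisson intervals for counting error (left) and as normalised tags per kb of listed region (right), shEZH2 in red and control in blue. Tags of the first 2 blocks differ by less than their counting intervals, and the values per kb are lower in shEZH2, where the regions are wider.

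**Figure D4:**
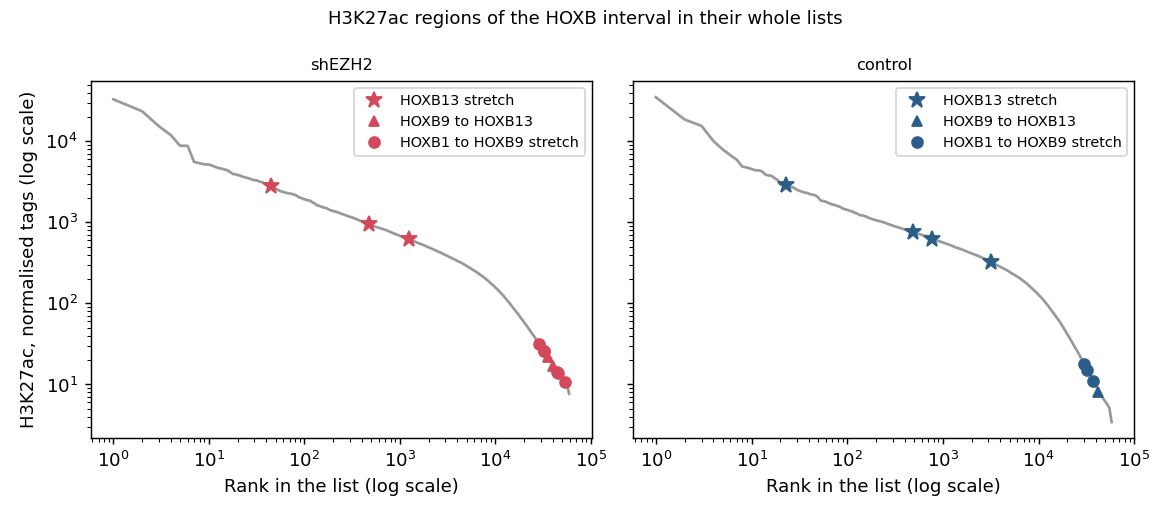
H3K27ac regions of each list (line) by rank (x axis, log scale) and normalised tags (y axis, log scale), shEZH2 on the left and control on the right, with the regions of the HOXB interval marked by stretch. The HOXB13 regions lie between 321.7 and 2878.2 tags, and the others of the interval at 8.03 to 32 tags.

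The border between the silenced and the active part was a wide stretch with no H3K27me3 and little H3K27ac. The last H3K27me3 region before HOXB13 ended at 46725686 in shEZH2 and at 46725361 in control, so its place was nearly the same in both lists. The H3K27ac region over HOXB13 began 68.6 kb farther on in shEZH2 and 70.3 kb in control. The last control H3K27me3 region held only 5.41 tags. With regions of at least 50 tags the distance was 68.6 kb in shEZH2 and 89.8 kb in control. That cut also left out the control region from 46723483 to 46724355, which held 31.8 tags and ranked in the upper 9.30% of its list. With the upper 50% by score the control distance stayed at 70.3 kb. Because the lists were called with different windows, 50 tags is not an equal cut in both. Above the border no H3K27me3 was listed for 309 kb in shEZH2 and 312 kb in control, a stretch with 19 H3K27ac regions in each list. Between the last H3K27me3 and the HOXB13 block lay a few weak H3K27ac regions. In shEZH2 these were from 46749038 to 46750038 with 17.1 tags and from 46755641 to 46757160 with 21.6 tags. In control there was 1, from 46756253 to 46756483, with 8.03 tags. Counting these, the gap from H3K27me3 to the next H3K27ac was 23.4 kb in shEZH2 and 30.9 kb in control.

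Weak H3K27ac regions were also listed in the HOXB1 to HOXB9 stretch, some of them overlapping H3K27me3. Along the whole interval neighbouring regions, sorted by start, changed from one mark to the other 9 times in shEZH2 and 4 times in control. Neighbours that overlapped were counted as well. With regions of at least 50 tags there was 1 change in each, the border before HOXB13. In control the marks touched at 46675224, where an H3K27ac region with 10.9 tags shared its first bases with an H3K27me3 region with 14.7 tags. That H3K27ac region was also listed in shEZH2, with 14.4 tags. There it lay inside the H3K27me3 region from 46671835 to 46682879, which held 171.5 tags. Between HOXB1 and the first control H3K27me3 region lay an H3K27ac region with 26.2 tags in shEZH2 and 17.8 in control, from 46624271 in control. A further H3K27ac region in that span, from 46633816 to 46634816 with 10.8 tags, was listed in shEZH2 alone. The H3K27ac region on the far side of HOXB1 held 26.2 tags in shEZH2 and 14.9 in control.

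At HOXB9 an H3K27ac region was listed in shEZH2 alone. It ran from 46702371 to 46703873 with 32.0 tags, at a place where the H3K27me3 regions of each group had an opening. The opening ran from 46703012 to 46703413 in shEZH2 and from 46701369 to 46703881 in control, where it held the whole span of the region. The opening was shorter than the region in shEZH2, so the region overlapped H3K27me3 on both sides there, over more of its length than the opening. The 4 H3K27ac regions of the interval that were listed in shEZH2 alone held 10.8 to 32.0 tags. All 8 control H3K27ac regions overlapped a shEZH2 region, against 97.0% over the list, and 7 of 11 shEZH2 regions overlapped a control region, against 59.0%. Because windows and thresholds differed between the lists, a gain of H3K27ac at HOXB9 cannot be told apart from the settings of the calls.

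EZH2 was listed at 3 places of the interval in shEZH2 and at 14 in control, out of 9493 and 23060 in the whole lists. With both lists cut to equal length by score the interval held 3 in shEZH2 and 6 in control. By stretch, the uncut lists held 3 and 9 peaks between HOXB1 and HOXB9, none and 2 in the stretch between, and none and 3 at HOXB13, in shEZH2 and control. In windows of the same length along the chromosomes, 9.55% of 11580 held at least as many EZH2 peaks as the interval in shEZH2 and 1.04% in control. For H3K27ac tags these shares were 0.708% and 0.509%, and for H3K27me3 tags 7.94% and 4.07%, in shEZH2 and control. The interval ranked higher among windows in H3K27ac tags than in H3K27me3 tags in both groups.

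All 3 EZH2 peaks of shEZH2 lay around and below HOXB9, and all 3 overlapped a control peak, against 56.2% over the list. The peak from 46691680 to 46691830 held 15.2 tags (9.50 to 22.9), and overlapped a control peak from 46691763 to 46691945 that held 24.0 (16.4 to 33.9). The peak from 46675260 to 46675410 held 10.3 (5.78 to 17.05), and its control counterpart from 46675154 held 15.8 (9.75 to 24.1). The peak from 46703189 to 46703339, beyond the HOXB9 position, held 8.27 (4.27 to 14.4), and its control counterpart from 46703318 held 19.5 (12.7 to 28.6). In shEZH2 the first lay on H3K27me3, the second on both marks, and the third on H3K27ac, 74 bp from H3K27me3. All 3 held fewer tags in shEZH2 per 10000000 tags of the library. Scaled instead to the tags in listed regions, which took 1.74% of tags in shEZH2 and 3.62% in control, the log2 ratio over the 3 together turned to 0.25, against -0.81. The ratios were 0.631 (0.350 to 1.12), 0.656 (0.315 to 1.34) and 0.424 (0.195 to 0.870), and the last alone had an interval below 1. The windows were 151 bp in shEZH2 and 183 bp in control. In each pair less than 50% of the control peak was covered by the shEZH2 peak, so these ratios compare partly different bases. The last pair shared only the bases from 46703318 to 46703339. Per kb the last ratio was 0.514 (0.236 to 1.05), so no interval lay below 1, and the log2 ratios were -0.38, -0.34 and -0.96. Over all 4551 shEZH2 peaks with at least 10 control tags the median was -0.50 per kb, so the 3 lay on either side of it.

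The control peaks that were called again were 3 of the 4 strongest. They are 3 of 14, or 21.4% (4.66 to 50.8), against 23.1% over the whole list. Of the 4 control peaks with at least 15 tags, 3 were called again, against 60.0% over the list. The fourth, from 46641916 to 46642098 on H3K27me3, held 16.5 tags and its nearest shEZH2 peak was 33162 bp away. The shEZH2 calling threshold of 6.89 tags corresponded to 41.8% of its tags. The 11 control peaks not called again held 7.5 to 16.5 tags, and 2 of them were below the shEZH2 threshold per kb already in control.

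**Figure D5:**
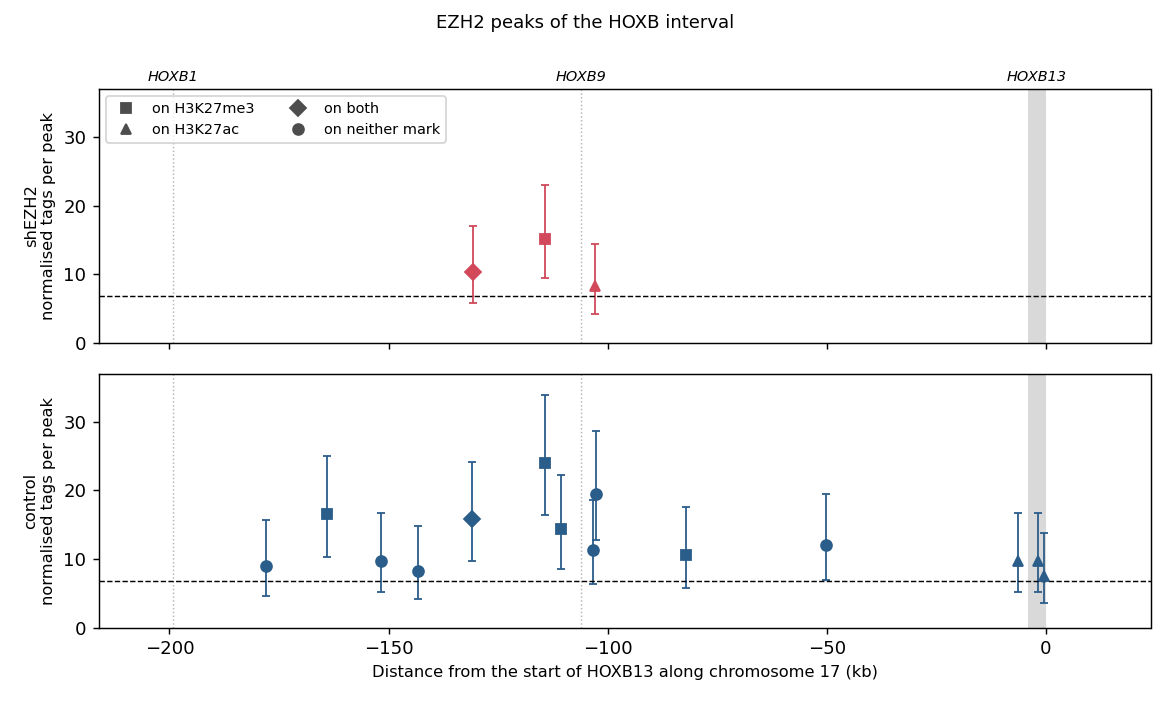
Normalised tags of each EZH2 peak (y axis) with 95% Poisson intervals for counting error, by distance from the start of HOXB13 (x axis, kb), for shEZH2 above and control below. Symbols give the marks of the same group at the peak, the dashed line is the calling threshold of the library, dotted lines mark HOXB1 and HOXB9 and the grey band HOXB13. The 3 shEZH2 peaks lie around and below HOXB9, and the 3 control peaks at HOXB13 lie near the threshold.

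At HOXB13 the control list held 3 EZH2 peaks, all within the broad H3K27ac region. The peak from 46805693 to 46805875 lay inside the gene, 236 bp from its start, and held 7.5 tags (3.60 to 13.8). The peak from 46804236 to 46804418, also inside the gene, held 9.75 (5.19 to 16.7). The peak from 46799777 to 46799959 lay 2168 bp beyond the 3′ end, on the side of PRAC1 and PRAC2, and held 9.75 (5.19 to 16.7). They stood 5.36-fold, 6.17-fold and 6.64-fold above the surrounding 10 kb, a deposited ratio for which a call needed 4-fold. The control H3K27me3 region nearest to any of them was 74416 bp away. Their tags were at or below 9.75, the median of the 7348 control EZH2 peaks on H3K27ac alone.

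None of the 3 HOXB13 peaks had a counterpart in shEZH2, where the nearest EZH2 peak was 89875 bp away. The shEZH2 threshold per kb stood at 111% of the control density of the peak near the gene's start and at 85.6% for each of the other two. The size of any change at these peaks can therefore not be told from the absent calls. Among the 3404 control peaks on H3K27ac alone with tags in the same range, 12.1% were called again. In the shEZH2 H3K27ac library the block over the gene held 98.3% of the control tags, an upper limit because the shEZH2 region was wider. Per kb the ratio was 0.832 (0.802 to 0.864).

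Around HOXB9 the control list held 4 EZH2 peaks, 2 on H3K27me3 and 2 in its opening. The peak from 46691763, with 24.0 tags, was the strongest of the interval, and 20.1% of control peaks on H3K27me3 alone held as many tags or more. The peak from 46695405 held 14.3 tags on H3K27me3 and stood 4.61-fold above its surroundings. The peaks from 46702677 and 46703318, with 11.3 and 19.5 tags, lay 1022 and 381 bp from control H3K27me3 regions and inside the H3K27ac region listed in shEZH2. The peak from 46702677 stood 4.21-fold above its surroundings, close to the 4-fold a call needed.

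From HOXB1 up to the peak from 46675154, neighbouring control EZH2 peaks lay 8.28 to 13.8 kb apart. The first, from 46627980, held 9 tags on neither mark, 21 kb above HOXB1. The peak from 46641916 lay on H3K27me3. The peaks from 46654283 and 46662750 held 9.75 and 8.25 tags and lay 1573 and 376 bp from control H3K27me3, but on H3K27me3 regions of the wider shEZH2 list. The peak from 46675154 lay on both marks, at the place where they touched.

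In the stretch between HOXB9 and HOXB13, 2 EZH2 peaks were listed in control. The peak from 46723998 to 46724180 held 10.5 tags and lay in the H3K27me3 region from 46723483 to 46724355, with 31.8 tags, the second last before HOXB13. The peak from 46755791 to 46755973 held 12.0 tags, 280 bp from the lone weak H3K27ac region of the border stretch and 30430 bp from H3K27me3. It stood 17.52-fold above its surroundings, the highest of the 14. Neither was listed in shEZH2, while the H3K27me3 region and the H3K27ac region beside them were.

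Counted together, EZH2 peaks on H3K27me3 of their own group were 2 of 3 in shEZH2 and 5 of 14 in control, against 67.8% and 44.2% over the lists. On H3K27ac they were 2 of 3 and 4 of 14, against 39.7% and 34.4%, in shEZH2 and control. On neither mark were none in shEZH2, against 6.26% over the list, and 6 of 14 in control (42.9%, 17.7 to 71.1), against 23.9%. Of those 6, 5 lay in the HOXB1 to HOXB9 stretch. All of the 6 except the peak from 46627980 lay on a histone region of the shEZH2 lists. Those lists were called with windows of 1000 bp against 150 bp in control, so these shares are read within a group. The median fold over the surroundings was 6.7 in shEZH2 and 7.21 in control.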

How the data were processed

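Region lists of 6 libraries were used; the other 3 samples are not analysed here. The submitters' processing notes name hg19 as build, BWA 0.6.1 and HOMER 4.1. Each library was called by itself without input, per the file headers. EZH2 peaks were fixed windows at a false discovery rate of 0.001 and at least 4-fold over the local 10 kb. Histone regions were joined windows of 1000 bp at a Poisson probability of 0.001 in shEZH2, and of 150 bp at a false discovery rate of 0.001 in control. The deposited signal is tags scaled by the authors to 10000000 per library. The deposited score ranked regions within a list only. The deposited fold over the local background is quoted for EZH2 peaks. The deposited clonal fold ratio lay between 0.8 and 1.21 in the interval.

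Overlap meant at least 1 shared bp, and widths count both end bases. Whole tags were recovered from library totals (all 72 regions under 100 tags within 0.15 of a whole number) for 95% exact Poisson intervals and for exact binomial intervals of ratios. Overlaps were tested on simulated regions and compared with bedtools 2.31.1. The members, stretches and comparisons were chosen with earlier results of these data known, and the ends of the stretches, the upper limits and the minimum of 15 tags were set after values were seen. Named regions were all EZH2 peaks, those at changes of mark, and per histone list the 3 with most tags from HOXB1 to HOXB9 and the 3 with most from there on; a few others were chosen after their values were seen. Alternatives are given in the closing section. Sequence and annotation of hg19 were not used here, and no p-value was computed. Software was scipy 1.17.1, pandas 2.3.3 and numpy 2.4.6 under Python 3.11.15, with matplotlib 3.10.9 for plots.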

Additional observations from a re-analysis of the deposited data

How the results depend on the processing

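With the upper 50% of each EZH2 list by score, the interval held 2 EZH2 peaks in shEZH2 and 7 in control, with lists of equal length 3 and 6, and with the interval widened by 100 kb 5 and 17. At 50% of the peak covered, 0 of the 3 shared control EZH2 peaks counted as called again. With the upper 50% of the histone lists by score, 0 shEZH2 EZH2 peaks lay on H3K27me3, H3K27me3 covered 33 kb in shEZH2 in place of 58.9 kb, and H3K27ac 12.6 kb in place of 38.7 kb. Changes between marks numbered 2 in control with the upper 50% by score, and 1 in shEZH2 and 1 in control with at least 50 tags. The distance from H3K27me3 to the H3K27ac region over HOXB13 kept within 1.5 times its value. With at least 50 tags it was 89.8 kb in control and 68.6 kb in shEZH2. It could not be computed in shEZH2 with the upper 50% by score, where the HOXB13 region was not included. At shared regions the log2 ratio per kb, shEZH2 over control, was -0.53 for EZH2, -0.56 for H3K27ac and -0.83 for H3K27me3. It became -0.81, -0.047 and 0.71 without division by width, and 0.53, -0.92 and -2.18 when scaled to the tags in listed regions. The sign for EZH2 thus depended on the scaling, and that for H3K27me3 on the width and, for tags, on the scaling (-0.65); the cause was not tested. No paired analysis was possible because each group held 1 library. With 7.5 to 24.0 tags per EZH2 peak, counting error alone spans a wide range.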
